A study of Mus musculus with 8 samples.

Results

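*Tmem254a*, *Tmem254b*, *Tmem254c*, *Plac9b* and *Gm9780* are 5 of the 48709 genes listed in every library of this RNA-Seq study of mouse pancreas, and all 5 lie in one run of duplicated genes on chromosome 14. They were chosen by name because their values were lower in cKO than in WT pancreata after both treatments. The genotype difference of these genes is therefore described here and not tested. Total pancreatic RNA was sequenced in 8 libraries from male mice, 2 for each of 4 groups, with mice aged 8 weeks and pancreata taken 24 hours after treatment. The WT and cKO groups received either normal saline or palmitoleic acid (POA) with ethanol, which produces fatty acid ethyl ester severe acute pancreatitis (FAEE-SAP). The cKO mice carried *Pfkfb3* fl/fl and *Pdx1*-Cre, so that Cre driven by the promoter of a pancreatic progenitor gene removes the floxed *Pfkfb3* exons.

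By the study's methods, the floxed allele was made in C57BL/6J eggs, the Cre mice came from a commercial breeder, and the WT mice were bought from a different one. The WT mice were not described as littermates, and they were not described as carrying the floxed allele or Cre. Genotype and source of the mice therefore cannot be told apart in any difference between cKO and WT. The labels call the 2 libraries of a group biological replicates and do not say how many animals gave each, so every p-value measures only the spread between these libraries.

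*Tmem254* genes encode a small protein predicted to span the membrane, and its function is not established. *Plac9* genes, named for their abundance in placenta, encode a small secreted protein, and *Gm9780* is the copy that RefSeq also lists under the synonym *Plac9*. Segmental duplications of this kind leave neighboring genes with nearly the same sequence, and a short read from such a gene often matches every copy equally well.

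The block held 3 copies of each family, all protein-coding and all on the minus strand (GRCm38, GENCODE vM21). *Plac9a* spanned chr14:25887506-25903100, *Gm9780* chr14:26027282-26042711, and *Plac9b* chr14:26167405-26182480. *Tmem254a* spanned chr14:25923300-25927672, *Tmem254c* chr14:26063919-26067355, and *Tmem254b* chr14:26203369-26207041. The *Tmem254* copies started 139683 and 139686 bp apart and the *Plac9* copies 139611 and 139769 bp apart, so each *Plac9* copy was followed by a *Tmem254* copy at nearly the same interval. *Plac9a* was the copy that the choice left out. Between and beside the pairs lay the *Cphx1*, *Cphx2*, *Cphx3*, *Duxbl1*, *Duxbl2* and *Duxbl3* homeobox genes. Their values as deposited did not exceed 0.0792 RPKM in any library. The span of *Cphx3* overlaps *Plac9b* and *Tmem254b* on the opposite strand.

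The first 150 coding bases are shown because they are the same in all 3 copies of a family, which limits what a read can say about any single copy. The start codon is in capitals and the sequence, from GRCm38, runs 5′ to 3′ across the spliced exons. The first line begins at base 25927149 in *Tmem254a*, 26066902 in *Tmem254c* and 26206518 in *Tmem254b*. The second begins at base 25902882 in *Plac9a*, 26042648 in *Gm9780* and 26182262 in *Plac9b*.
Tmem254a, Tmem254b and Tmem254c: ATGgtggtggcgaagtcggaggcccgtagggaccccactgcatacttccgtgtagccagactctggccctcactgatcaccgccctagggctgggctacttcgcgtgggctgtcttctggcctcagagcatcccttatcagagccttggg
Plac9a, Plac9b and Gm9780: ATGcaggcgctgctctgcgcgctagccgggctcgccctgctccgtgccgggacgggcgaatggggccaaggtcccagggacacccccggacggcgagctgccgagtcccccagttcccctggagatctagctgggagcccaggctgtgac
The whole coding sequence of 387 bp, and a second one, was identical in the 3 *Tmem254* copies. The 324-bp coding sequence was identical in *Plac9a*, *Plac9b* and *Gm9780*.

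Across the annotated transcripts, *Tmem254b* and *Tmem254c* had 0 unique windows of 100 bases, of 1956 and 1480. All of their windows occurred in at least one other copy. *Tmem254a* had 700 unique windows, 26.4% of its own, but its deposited values gave whole reads with an exonic length of 1869 bp, the length of *Tmem254b*, and not with the 2569 bp of the annotation. *Plac9b* had 44 unique windows of 1273, *Gm9780* 8 of 1303, and *Plac9a* 6 of 1744. The values of single copies therefore rest mostly on reads whose assignment among copies is uncertain, and how the authors' software divided such reads is not given in the sources used here. With windows of 100 or 150 bases, no other annotated gene shared a window with either family.

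The RefSeq promoters (GRCm38.p6, minus strand) are shown because the copies also share these bases. Each line ends 30 bases after the annotated start, and capitals mark GC boxes, the letters GGGCGG or CCGCCC on either strand. The first is *Tmem254c* at chr14:26067396-26067675 and the second *Plac9b* at chr14:26182322-26182601.
Tmem254c: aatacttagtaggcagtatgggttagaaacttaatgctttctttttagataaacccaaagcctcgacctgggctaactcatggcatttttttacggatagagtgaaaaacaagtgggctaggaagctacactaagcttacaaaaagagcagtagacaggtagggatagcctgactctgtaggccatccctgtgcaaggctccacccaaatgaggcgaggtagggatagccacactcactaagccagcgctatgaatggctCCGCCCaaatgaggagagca
Plac9b: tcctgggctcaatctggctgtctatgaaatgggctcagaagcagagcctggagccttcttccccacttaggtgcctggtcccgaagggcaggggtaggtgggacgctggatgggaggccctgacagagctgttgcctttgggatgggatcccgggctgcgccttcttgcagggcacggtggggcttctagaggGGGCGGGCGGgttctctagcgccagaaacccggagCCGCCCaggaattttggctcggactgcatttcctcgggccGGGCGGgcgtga
RefSeq lists a second, downstream start for each *Tmem254* copy. The printed window of *Tmem254c* is that of the upstream start. The downstream windows, not printed, shared runs of 289 bases between *Tmem254a* and *Tmem254c*, 211 between *Tmem254a* and *Tmem254b*, and 222 between *Tmem254c* and *Tmem254b*, whose downstream window held 0 GC boxes. The upstream window of *Tmem254a* was identical to the printed one over all 300 bases, and that of *Tmem254b* shared an unbroken run of 284 of them. The *Gm9780* window was identical to that of *Plac9b* over 300 bases, and the *Plac9a* window shared a run of 222. GC boxes numbered 4 in the *Plac9b* window, of which a pair overlap, and 1 in the *Tmem254c* window. They occurred in 35.7% of all 32851 RefSeq promoter windows of this length. The letters CCAAT, found on either strand in 37.4% of windows, and TATAAA, found in 13.6%, were in neither window. These matches describe the letters alone.

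Libraries held 22.9 to 37.7 M reads, as recovered from the steps between low values. The acinar markers *Cpa1*, *Cel*, *Pnlip*, *Ptf1a*, *Rbpjl* and *Bhlha15* were all above 0 in every library. Values are deposited RPKM, reads per kilobase of exon corrected for library size, or scaled RPKM, the deposited value divided by a median-of-ratios factor, which ranged from 0.621 in a cKO saline library to 2.02 in a WT FAEE-SAP library. *Pfkfb3*, the targeted gene, had scaled RPKM of 1.70 and 1.69 in WT against 0.880 and 2.10 in cKO after saline, and 1.85 and 3.21 against 1.74 and 2.82 after FAEE-SAP. The scaled groups overlapped after both treatments, while as deposited the FAEE-SAP values, 3.75 and 6.22 RPKM in WT and 1.82 and 2.75 in cKO, did not. A value for the whole gene cannot show the loss of its floxed exons. In bulk tissue, fewer cells of a type and less RNA per cell cannot be told apart.

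*Tmem254a* had scaled RPKM of 1.14 and 1.29 in WT against 0.274 and 0.179 in cKO after saline, and 1.19 and 0.768 against 0.426 and 0.319 after FAEE-SAP. *Tmem254b* had 1.24 and 1.60, 0.274 and 0.154, 1.35 and 0.735, and 0.408 and 0.266 scaled RPKM in the same order. Every WT library lay above every cKO library for both copies, and their means were 5.36-fold and 6.66-fold higher in WT than in cKO after saline and 2.62-fold and 3.09-fold higher after FAEE-SAP. These copies were assigned similar numbers of reads in each library, from 7 and 6 in the second cKO saline library to 103 and 117 in the first WT FAEE-SAP library.

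*Tmem254c* was the most abundant *Tmem254* copy per length in each library, with scaled RPKM of 2.45 and 1.63 in WT saline and 0.701 and 1.30 in cKO saline. After FAEE-SAP it had 2.91 and 2.47 scaled RPKM in WT and 0.766 and 1.11 in cKO. The WT mean was 2.04-fold higher after saline, where the nearest libraries differed by 0.327 scaled RPKM, and 2.87-fold higher after FAEE-SAP. The share of *Tmem254* reads assigned to *Tmem254c* ran from 32.3% in the second WT saline library to 76.8% in the second cKO saline library.

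*Plac9b* had scaled RPKM of 2.15 and 2.97 in WT against 1.46 and 0.672 in cKO after saline, and 2.96 and 2.61 against 1.11 and 0.905 after FAEE-SAP. Its WT mean was 2.40-fold and 2.77-fold that of cKO after saline and FAEE-SAP, with no overlap. *Gm9780* had the lowest values of the 5 genes in the WT libraries, with scaled RPKM of 0.656 and 0.331 in WT saline and 0.369 and 0.304 in WT FAEE-SAP. It was listed at 0 in 1 cKO library of each treatment and had 0.273 and 0.222 scaled RPKM in the others, so no fold is given. At most 27 reads fell on *Gm9780* in any library, and it was the member with the smallest gap, since its nearest WT and cKO libraries differed by 0.0582 scaled RPKM after saline.

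*Plac9a*, the copy not chosen, had means that were also lower in cKO. It had scaled RPKM of 0.183 and 1.08 in WT saline and 0.0966 and 0.470 in cKO saline, which overlap. After FAEE-SAP it had 0.276 and 0.893 in WT and 0.0261 and 0.05 in cKO, which do not overlap and rest on 17, 75, 1 and 2 reads.

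**Figure D1:**
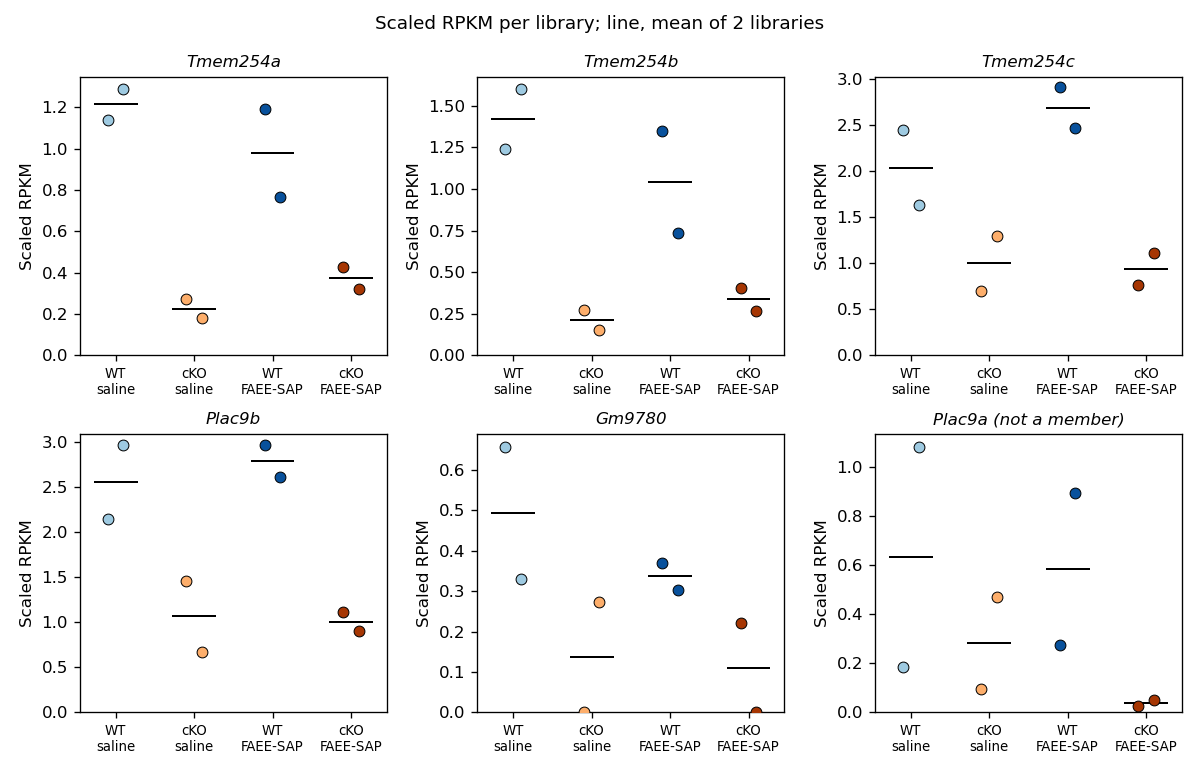
Scaled RPKM (vertical axes, linear, from 0) of the 5 genes and of *Plac9a* in each of the 8 libraries, with each point a library and each line the mean of 2. In the panels of the 5 genes both WT libraries sit above both cKO libraries within each treatment, whereas the *Plac9a* saline libraries overlap.

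As deposited, *Tmem254c* had 1.78 and 1.41 RPKM in WT against 0.435 and 0.866 in cKO after saline, and 5.90 and 4.79 against 0.802 and 1.08 after FAEE-SAP. *Plac9b* had 1.57 and 2.57, 0.909 and 0.447, 5.99 and 5.05, and 1.16 and 0.883 deposited RPKM in that order. The deposited WT FAEE-SAP values of these copies stood far above the other groups, and after scaling the WT FAEE-SAP libraries lay among WT saline for *Plac9b* and above it for *Tmem254c*. *Tmem254a* had 0.830 and 1.12, 0.170 and 0.119, 2.40 and 1.49, and 0.446 and 0.311 deposited RPKM. *Tmem254b* had 0.905 and 1.39, 0.170 and 0.102, 2.73 and 1.42, and 0.427 and 0.260. *Gm9780* had 0.478 and 0.287, 0 and 0.182, 0.746 and 0.588, and 0.233 and 0. No member's groups overlapped between genotypes within a treatment on the deposited scale either. The mean deposited difference after FAEE-SAP was 5.67-fold for *Tmem254c*, 5.41-fold for *Plac9b*, 5.14-fold for *Tmem254a* and 6.05-fold for *Tmem254b*.

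All 5 genes were lower without overlap in both treatments, on the contrast by which they were chosen. Over the 11133 genes that passed the filter across 8 libraries, 3.49% were lower without overlap in both treatments when scaled and 38.0% as deposited. After saline alone the scaled share was 13.6% and the deposited 43.6%, and after FAEE-SAP alone 25.1% and 80.6%. On the scale of log2(scaled RPKM + 0.1), the differences of means, cKO minus WT, ran from -2.18 for *Tmem254b* to -0.98 for *Tmem254c* after saline. After FAEE-SAP they ran from -1.48 for *Tmem254c* to -1.23 for *Tmem254a* among the 4 genes other than *Gm9780*. *Gm9780* did not pass the filter after saline, and its difference depends on the pseudocount because of the libraries listed at 0. The median of the other 4 genes was -1.58 after saline and -1.42 after FAEE-SAP, while the median of all genes tested was 0.01 and -0.01. With *Gm9780* included, the saline median was -1.36, its own value, and the FAEE-SAP median -1.42.

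Because the copies share sequence, the reads of each family were also summed, which does not depend on how reads were divided among copies. The *Tmem254* sum holds only chosen members, so its direction was fixed by the choice and only its size is described. The 3 *Tmem254* copies together had 8.33 and 7.99 scaled RPM (reads corrected for library size, without correction for length) in WT and 2.13 and 2.68 in cKO after saline, and 9.35 and 6.72 in WT and 2.77 and 2.85 in cKO after FAEE-SAP. The standard deviation of the 2 libraries was 0.241 in WT and 0.388 in cKO after saline, and 1.86 and 0.059 after FAEE-SAP. The WT sum was 3.39-fold higher after saline and 2.86-fold higher after FAEE-SAP. As deposited, the *Tmem254* sum was 4.17-fold and 5.62-fold higher in WT, from 6.06 and 6.92 RPM in WT and 1.32 and 1.78 in cKO after saline, and 18.9 and 13 in WT and 2.90 and 2.78 in cKO after FAEE-SAP. Recovered reads on the *Tmem254* copies numbered 50 to 86 in cKO and 172 to 434 in WT libraries.

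The 3 *Plac9* copies together had 3.92 and 5.70 scaled RPM in WT and 2.01 and 1.87 in cKO after saline, and 4.68 and 4.96 in WT and 1.77 and 1.23 in cKO after FAEE-SAP. WT sums were 2.48-fold and 3.22-fold those of cKO, without overlap after either treatment, although *Plac9a* alone overlapped after saline. Most reads of this sum fell on the chosen *Plac9b* and *Gm9780*, so its direction was largely fixed by the choice. Over all genes, 3.49% were lower in cKO without overlap in both treatments when scaled. As deposited, the *Plac9* sum was 3.13-fold and 6.26-fold higher in WT. Within the family, *Plac9b* took 46.2% to 94.6% of the reads of a library and *Plac9a* 1.96% to 33.3%. *Gm9780* took from 0% to 23.5%.

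**Figure D2:**
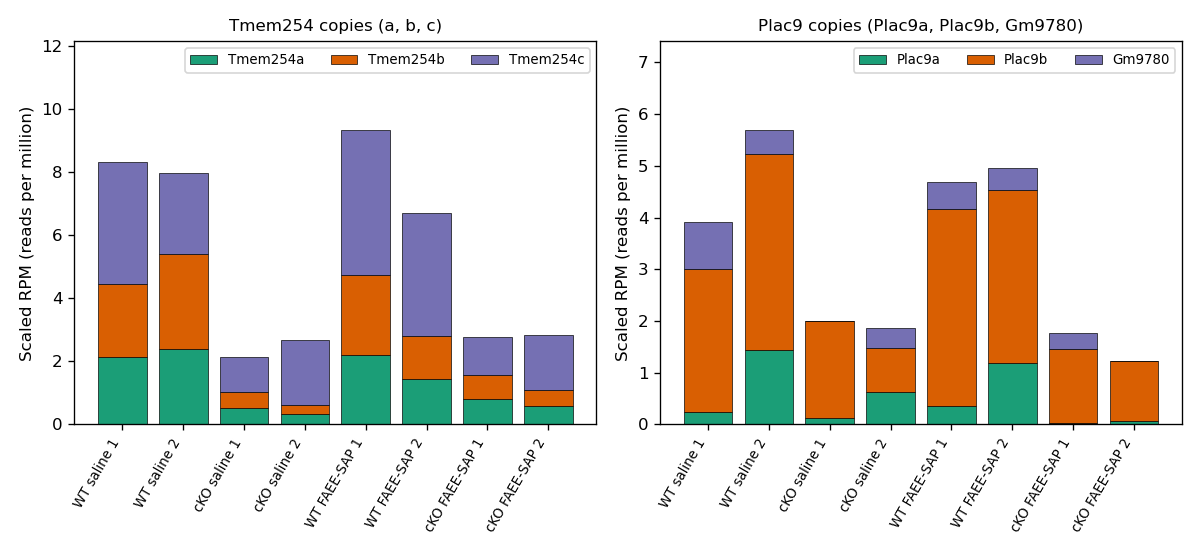
Scaled RPM (vertical axes, linear, from 0) summed over the 3 copies of each family, with each stacked bar a library and each color a copy. The *Tmem254* bars reach 6.72 to 9.35 in WT and 2.13 to 2.85 in cKO, and the *Plac9* bars 3.92 to 5.70 in WT and 1.23 to 2.01 in cKO.

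The response to FAEE-SAP was not used to choose the genes and was tested with limma over all genes. In WT, 0 of the 5 genes passed an adjusted p of 0.05 and a 2-fold change, while 6.93% of all genes tested passed. At an unadjusted p under 0.05 there were 0 of the 5 and 27.7% of all genes. *Tmem254c* differed by 0.41 (SE 0.27, limma adjusted p = 0.381) and *Plac9b* by 0.13 (SE 0.24, limma adjusted p = 0.777) on the log2 scale, FAEE-SAP minus saline. *Tmem254a* differed by -0.32 (95% interval -1.01 to 0.36), *Tmem254b* by -0.47 (-1.30 to 0.35) and *Gm9780* by -0.41 (-1.30 to 0.48). These intervals leave room for a 2-fold decrease of *Tmem254a*, *Tmem254b* and *Gm9780*, and that of *Tmem254c*, -0.25 to 1.06, for a 2-fold increase.

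As deposited, without scaling, *Tmem254c* rose by 1.68 (limma adjusted p = 0.00215) and *Plac9b* by 1.41 (limma adjusted p = 0.00537) after FAEE-SAP in WT, and 7270 genes passed where 755 did after scaling. *Tmem254a* and *Tmem254b* turned to 0.91 and 0.76. *Gm9780* turned to 0.69, so 3 of the 5 genes changed direction in WT when values were left unscaled. Scaling lowers WT FAEE-SAP values of every gene against WT saline, by factors of 2.02 and 1.94 against 0.728 and 0.866 over 8 libraries. Nothing particular to these genes is therefore read from the turn.

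In cKO, *Tmem254c* and *Plac9b* alone passed the filter. They differed by -0.02 (95% interval -0.91 to 0.86) and 0.03 (-0.97 to 1.02) between FAEE-SAP and saline, and 0 of these 2 genes was called, with 0.0531% of all genes called. At an unadjusted p under 0.05 there were 0 of the 2 and 9.42% of all genes. The difference of the responses, cKO minus WT, equals the genotype difference after FAEE-SAP minus that after saline, the values by which the genes were chosen, so it is given with no test. Over all genes, 0.0719% were called for this difference, and nothing is read from that share here. It was 0.95 for *Tmem254b*, 0.85 for *Tmem254a*, 0.29 for *Gm9780*, -0.13 for *Plac9b* and -0.46 for *Tmem254c*. The values had both signs, and since the division of reads among copies is uncertain, no direction is read from them.

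With the copies summed, a choice made after the data were seen, *Tmem254* differed by -0.05 (95% interval -0.61 to 0.52) and *Plac9* by 0.02 (-0.58 to 0.61) between FAEE-SAP and saline in WT. The cKO differences were 0.24 (-0.26 to 0.74) for *Tmem254* and -0.33 (-0.96 to 0.30) for *Plac9*. None of these intervals for scaled sums reached a 2-fold change, and 0 of the 2 sums was called in either genotype. Both sums were called in WT as deposited, where *Tmem254* rose by 1.25 (limma adjusted p = 0.0053) and *Plac9* by 1.31 (limma adjusted p = 0.00728). In the deposited fit of single genes, 7270 of 10894 genes were called, so nothing particular to these families is read from this. In cKO the deposited differences were 0.81 (95% interval 0.25 to 1.37) for *Tmem254* and 0.24 (-0.43 to 0.90) for *Plac9*, and 0 was called.

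**Figure D3:**
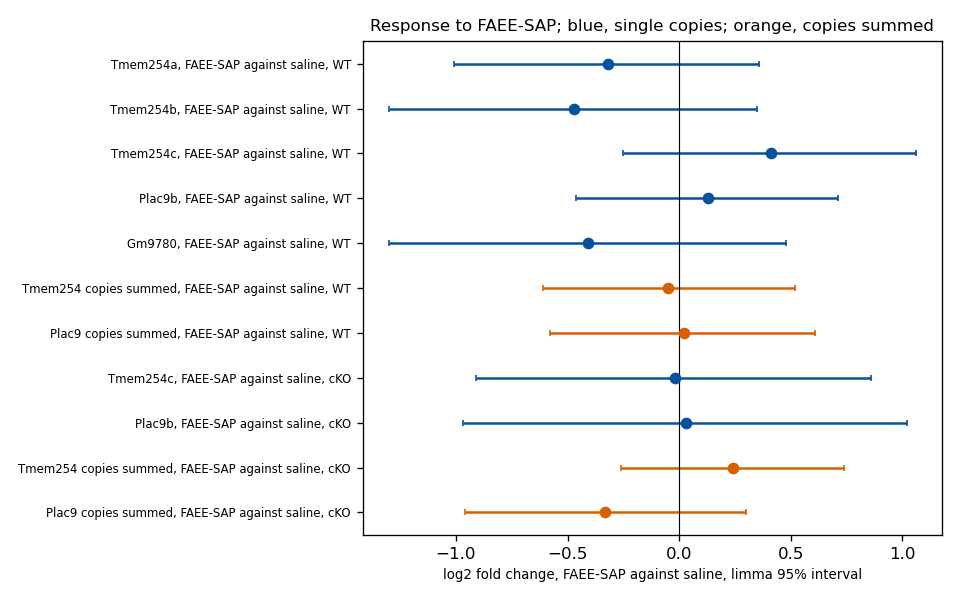
Log2 fold change of scaled values after FAEE-SAP in WT and in cKO, with limma 95% intervals (horizontal axis), for single copies in blue and for the summed copies of each family in orange. All intervals cross 0, and the intervals of the sums are narrower than those of most single copies.

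Genes around the block were compared to see whether they were also lower in cKO. Of 44 other genes within 1 Mb of the block, 17 were listed at 0 in all libraries. After saline, 9 passed the filter, their differences, cKO minus WT, ran from -0.37 to 0.16 with a median of -0.06, and 0 were called by limma or had an unadjusted p under 0.05. Over all 8715 genes tested after saline, 0 were also called and 187 had an unadjusted p under 0.05. The nearest tested gene on one side, *Anxa11*, an annexin that binds calcium and phospholipid, differed by 0.01 (95% interval -0.42 to 0.44), and the nearest on the other, *Slmap*, by 0.16 (-0.24 to 0.56). The other 7 were *Zmiz1*, *Ppif*, *Zcchc24*, *Dennd6a*, *Arf4*, *Appl1* and *Arhgef3*.

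After FAEE-SAP, 11 passed the filter, including *Pde12* and *Plac9a*, with differences from -2.42 to 0.73 and a median of 0. None was called by limma, against 1.27% of all genes tested, and 3 of the 11 had an unadjusted p under 0.05, as did 19.5% of all 11008 genes tested. *Plac9a* differed by -2.42 (SE 0.55, limma adjusted p = 0.113), *Zcchc24* by 0.73 (SE 0.27, limma adjusted p = 0.220), and *Arf4*, a GTPase of vesicle traffic, by -0.57 (SE 0.17, limma adjusted p = 0.173). A fit blocked by replicate number called the *Plac9a* difference (limma adjusted p = 0.0377). *Plac9a* passed the filter here only through its WT libraries, and nearly all of its sequence is shared with the chosen copies. No test of *Plac9a* in this comparison, including its place among the 3, is therefore independent of the choice, and nothing is read from it. *Anxa11* differed by -0.16 (-0.75 to 0.44) and *Slmap* by 0.07 (-0.53 to 0.67). Of the 11 neighboring genes that passed the filter across 8 libraries, 0 were lower in cKO without overlap in both treatments when scaled, where 3.49% of all genes were, and 5 as deposited, where 38.0% were. As deposited, 4 neighboring genes were called after FAEE-SAP, among them *Anxa11* at -1.10 (limma adjusted p = 0.0133), *Arf4* at -1.53 (limma adjusted p = 0.00977) and *Plac9a* at -3.0 (limma adjusted p = 0.0117), when 4427 of all genes were.

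**Figure D4:**
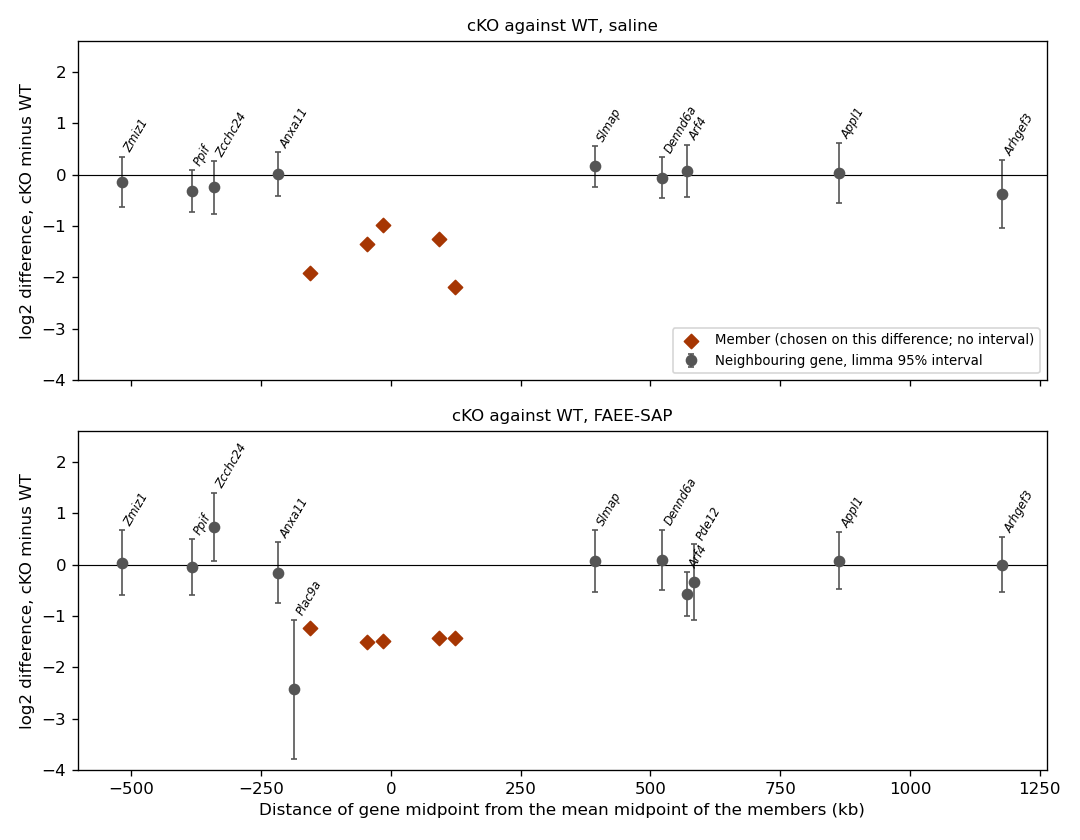
Log2 difference, cKO minus WT (vertical axes), against the distance of each gene's midpoint from the mean midpoint of the 5 genes in kb (horizontal axis), after saline above and after FAEE-SAP below. Diamonds are the 5 genes, lying between -2.18 and -0.98 and shown without intervals because they were chosen on this difference, and circles are neighboring genes with limma 95% intervals, of which *Plac9a* alone lies below -1.

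The marker lists of other cell types were set beside the genotype difference. Over 9 lists, no list held a marker that was lower in cKO without overlap in both treatments. Of all genes only 3.49% were when scaled, so little is read from this. The summed scaled RPKM of 6 fibroblast markers ranged from 53.9 to 64.0 in WT and 57.9 to 59.5 in cKO after saline, and from 49.5 to 57.5 and 58.4 to 64.9 after FAEE-SAP. The 6 acinar markers summed to 62100 to 66500 in WT and 72900 to 81900 in cKO after saline, and to 12900 to 15800 and 34300 to 38000 after FAEE-SAP, with 4 of 6 higher in cKO in both treatments. The islet list had 1 of 5 markers higher in cKO in both treatments, and its sums were 257 to 304 and 282 to 356 after saline and 151 to 204 and 398 to 405 after FAEE-SAP. The share of all genes higher in cKO in both treatments was not computed, so nothing is read from these counts. Like the *Tmem254* and *Plac9* copies, but in 1 treatment each, the sums of 5 lymphoid and 5 ductal markers were lower in cKO without overlap. The lymphoid sum was 7.50 to 16.6 in WT and 6.41 to 6.42 in cKO after saline, and 10.1 to 12 and 4.94 to 13.9 after FAEE-SAP. The ductal sum was 8.60 to 10.7 in WT and 6.73 to 10.1 in cKO after saline, and 13.1 to 13.9 and 9.91 to 10.5 after FAEE-SAP. The endothelial sum was 10.8 to 13.3 in WT and 10.7 to 11.4 in cKO after saline, and 10.9 to 11 and 12.8 to 16.7 after FAEE-SAP. The myeloid, adipocyte and red blood cell sums overlapped between genotypes after saline. After FAEE-SAP the myeloid sum was 47.8 to 72.7 in WT and 63.3 to 77.4 in cKO, the adipocyte sum 5.29 to 8.73 and 1.18 to 9.93, and the red blood cell sum 57.3 to 152 and 151 to 177, all overlapping. *Lep*, of the adipocyte list, was the only listed marker at 0 in any library. The part of acinar, islet, ductal, lymphoid, endothelial or fibroblast content in the levels of the *Tmem254* and *Plac9* copies was not tested.

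*Nnt*, a mitochondrial transhydrogenase gene in which C57BL/6J mice carry a deletion, was given as a gene that can differ with the origin of mice. It had scaled RPKM of 1.63 and 1.60 in WT against 4.15 and 4.31 in cKO after saline, and 0.416 and 0.327 against 1.99 and 1.86 after FAEE-SAP. It was higher in cKO without overlap in both treatments, by 1.29 (limma adjusted p = 0.591) after saline and 2.17 (limma adjusted p = 0.0255, called) after FAEE-SAP on the log2 scale. With no filter, or without either WT FAEE-SAP library, 0 genes were called in that comparison, and the call of *Nnt* was lost. What it shares with the *Tmem254* and *Plac9* copies was not tested.

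Among the copies, *Tmem254a* and *Tmem254b* had the closest profiles over the 8 libraries (Pearson r = 0.996 of log2 values), and the remaining pairs of members ran from 0.491 for *Plac9b* and *Gm9780* to 0.924 for *Tmem254b* and *Plac9b*. The 8 points share the genotype difference by which the genes were chosen, and copies share reads. Outside the neighborhood, the 5 genes whose profile was most like the mean of the members, among those at least 2-fold higher in WT, were *Igkv4-86* (r = 0.947), *Dnmt3bos* (0.902), *RP24-286J21.7* (0.850), *Gm2564* (0.840) and *Acap1* (0.834). *Igkv4-86*, an immunoglobulin variable segment, had scaled RPKM of 4.13 to 9.73 in the WT and 1.05 to 4.03 in the cKO libraries. *Dnmt3bos* had scaled RPKM of 0.294 to 0.607 in the WT and 0.0594 to 0.200 in the cKO libraries, and *Acap1*, which encodes a GTPase-activating protein for ARF, 0.608 to 1.27 and 0.211 to 0.788.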

How the data were processed

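Per the labels and the methods of the study, total pancreatic RNA was made into directional libraries, sequenced as read pairs, filtered with fastp, and mapped to GRCm38.p6 with CLC Genomics Workbench. The authors deposited RPKM values per gene and library, with no counts. The handling of reads that match several genes, and the use of strand in counting, are not given in the sources used here. Library totals, and reads per copy within 0.15 of a whole number, were recovered from the RPKM with GENCODE vM21 exonic lengths, to which 95.1% of genes were matched by symbol. Of values under 20 reads, 84.1% to 85.5% were whole within 0.1 reads. For *Plac9a* a length of 1325 bp fitted whole reads, in place of the annotated 1751 bp, so its reads are approximate.

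RPKM were scaled by median of ratios and fitted as log2(RPKM + 0.1) using limma 3.58.1 (R 4.3.3) and its intensity trend. Genes entered a fit when 2 or more of its libraries had RPKM of at least 0.5. Fold changes on that scale understate those of low genes. Genes were called at a Benjamini-Hochberg adjusted p under 0.05 and at least 2-fold. Scaling for the values of single libraries used all 8 libraries, and each fit scaled its own. Tables and plots were made in Python 3.11.15. Only the fit of cKO against WT after saline was run on simulated data, with normal noise and large changes. Nothing is read from it for the other fits. Groups came from the labels.

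The members and the lists of genes were chosen with earlier results of these data known. Named genes were the 5 members, the neighboring genes within 1 Mb that passed the filter, the duplicated families of the block, *Pfkfb3*, *Nnt*, and the 5 genes with the profile closest to the members' mean. *Plac9c* is not analysed here, and *Anxa11os* was at or near 0 throughout. Alternatives were the deposited values, another scaling, filters, a pseudocount of 1, no trend, all 8 libraries in 1 model, a replicate block and leaving out each library. Same-numbered libraries deviated together with r of 0.313 and 0.45 in FAEE-SAP genotype and cKO treatment comparisons and with -0.395 and -0.175 in the others, so numbers were not taken as pairs.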

Additional observations from a re-analysis of the deposited data

Results flagged for a closer look

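After scaling, *Zcchc24* moved in opposite directions after FAEE-SAP in the genotypes. Its mean scaled RPKM went from 1.22 to 1.0 in WT and from 1.03 to 1.76 in cKO, with both libraries on the same side in each genotype. The difference of the responses was 0.96 on the log2 scale (limma adjusted p = 0.315) and did not pass. As deposited, *Zcchc24* was higher after FAEE-SAP in both genotypes, at 0.851 and 1.11 against 1.99 and 1.98 RPKM in WT and 0.575 and 0.755 against 2.20 and 1.38 in cKO, so the opposite movement depends on the scaling. *Arf4* went from 17.5 to 24.0 in WT and from 18.8 to 16.3 in cKO, again without overlap, and its difference of responses was -0.66 (limma adjusted p = 0.333), which did not pass. It too was higher after FAEE-SAP in both genotypes as deposited, at 11.8 and 16.3 against 49.1 and 46.1 RPKM in WT and 12.8 and 11.4 against 17.2 and 15.8 in cKO. For the difference of responses, 2 of the 11 neighboring genes and 12.6% of all genes had an unadjusted limma p under 0.05. The share of all genes that moved in opposite directions without overlap was not computed. The scaled means of *Tmem254a* also moved in opposite directions, from 1.21 to 0.978 in WT and from 0.227 to 0.373 in cKO, as did those of *Tmem254b*, from 1.42 to 1.04 and from 0.214 to 0.337, but their WT libraries overlapped between treatments.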

How the results depend on the processing

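The direction of the 5 genes' difference, cKO minus WT, was fixed by their choice, so only its size is given. The median over all 5, *Gm9780* included, was -1.36 after saline, -1.50 as deposited, -0.69 with a pseudocount of 1, -1.56 with all 8 libraries in 1 model and -1.75 to -1.50 without single libraries. After FAEE-SAP it was -1.42, and -2.25, -0.73 and, without single libraries, -1.55 to -1.20. Over the 4 genes other than *Gm9780*, a median added after seeing the data, it was -1.58 after saline, -1.82 as deposited, -0.70 with a pseudocount of 1 and -1.94 to -1.51 without single libraries. As deposited, 4 neighboring genes were called after FAEE-SAP and 2 of the 5 genes, or both of the 2 summed families, in WT after treatment. With the replicate block, 1 neighboring gene, *Plac9a*, was called after FAEE-SAP and no other member or neighbor call changed. That test is not independent of the choice of the genes. Deposited values reversed *Anxa11* (-0.25) and *Arf4* (-0.20) after saline, *Zcchc24* (-0.18) after FAEE-SAP, the WT responses of *Tmem254a* (0.91), *Tmem254b* (0.76) and *Gm9780* (0.69), the cKO response of *Tmem254c* (0.52) and the difference of responses of *Gm9780* (-0.57). A minimum of RPKM 2 gave *Anxa11* -0.02 after saline, and a pseudocount of 1 gave the cKO response of *Plac9b* -0.01. The causes were not tested. Without single libraries, signs turned within these ranges: *Anxa11* -0.11 to 0.12 after saline and -0.40 to 0.10 after FAEE-SAP, *Arf4* -0.07 to 0.21 after saline, the WT responses of *Tmem254a* -0.57 to 0.01, *Plac9b* -0.09 to 0.33 and *Gm9780* -0.86 to 0.01, the cKO responses of *Tmem254c* -0.42 to 0.38 and *Plac9b* -0.47 to 0.53, and the differences of responses of *Plac9b* -0.64 to 0.38 and *Gm9780* -0.70 to 1.27. A lone library left in a group was assumed to vary like the others. Over all genes, calls after FAEE-SAP, cKO against WT, were 140, and 4427 as deposited, 0 unfiltered, 57 without the trend, 295 with 8 libraries, 568 with the replicate block and 0 to 139 without single libraries. After saline they were 0, and 2 as deposited. The WT response had 755 calls, and 7270 as deposited, 259 unfiltered, 442 with the block, 822 with crossed numbers (added after seeing the data, like the summed copies; crossed numbers gave 0 after saline) and 97 to 491 without single libraries. The cKO response had 5, and 15 as deposited or with 8 libraries, 0 unfiltered, 52 with the block and 0 to 6 without single libraries. The difference of responses had 8, and 791 as deposited, 0 unfiltered, 35 with a minimum of 2, 24 with a pseudocount of 1, 3 without the trend, 0 with the block and 0 to 4 without single libraries. Groups held 2 libraries and a copy at most 248 reads, and a change under 2-fold could not be called by the rule used.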
